A study of Phalacrocorax auritus with 15 samples.

Results

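In livers of double-crested cormorant embryos, 73 of 16181 measured RNA features met the rule of this report. Mean abundance was modest over 4 of the 5 solvent-exposed livers, and 25% of that or less with the synthetic oestrogen ethinylestradiol (EE2). The 73 features were chosen on counts scaled to the library total (CPM). Their mean over solvent replicates 1, 3, 4 and 5, here called S, was at least 5 and under 100 CPM, and their mean over the 10 EE2-exposed libraries was at most 25% of S. They were 0.86% of the 8490 features with S in that range, and 0.451% of all features. Because these values chose them, the difference between exposed livers and those 4 solvent livers is given as a description, without a test. In the remaining solvent liver, replicate 2, 35 of the 73 were at or under 25% of S, against 1.5% of the 8490 features.

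The double-crested cormorant is a fish-eating waterbird, and EE2 is the oestrogen of many oral contraceptives. EE2 in dimethyl sulfoxide, or the solvent without it, went into the air cell of each egg in a 50 µl injection before incubation began. Left-lobe liver was profiled by RNA sequencing in 5 samples at a nominal 33.3 µg EE2 per g egg (actual dose 31.9), 5 at a nominal 3.33 µg per g egg (actual dose 2.3) and 5 given solvent. Embryos are labelled as embryonic day 14, whereas the design text of the series gives day 16 for this species. Nothing in the labels says that the numbered replicates came from different eggs, and p-values here therefore measure only the spread between these samples.

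In egg-laying vertebrates the liver is a main target of oestrogen. Bound to its nuclear receptors, the hormone switches on hepatic production of yolk precursors such as the vitellogenins, and it also lowers the transcripts of other liver genes. The deposited table gives feature IDs and pairs none of them with a gene name, so no member is given a name, a role or a sequence, and no pathway list was applied. Members are therefore described by abundance, by library and by dose, and 2 are given by ID. The labelled tissue was not checked against liver markers for the same reason.

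Total counts were 13107675 to 19653262 in the 10 exposed libraries, 11602455 in solvent replicate 2 and 17216349 to 19929889 in the other 4 solvent libraries. A single count was thus worth 0.0502 to 0.0862 CPM. Solvent replicate 2 stood apart. Its Pearson correlation of log2(CPM + 1) with the other solvent libraries, across features, was 0.862 to 0.903, against 0.976 to 0.993 among those 4 and 0.948 to 0.995 among exposed libraries. Features are not independent replicates. The 20 most abundant features took 12.4 to 19.8% of counts at 33.3 µg/g, 9.41 to 19.8% at 3.33 µg/g, 10.04% in solvent replicate 2 and 25.6 to 31.2% in the other solvent libraries, so CPM values depend on what else fills a library. The median feature with S of 5 to 100 CPM had an exposed mean of 168% of S and 1.93 times S in solvent replicate 2. The column prefix of the table is the same for all solvent libraries and differs from that of all exposed libraries. Any batch it marks cannot be told apart from exposure.

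The 73 members covered the whole of the allowed range of abundance. S lay between 5.053 and 99.79 CPM with a median of 25.77, and 17 members were under 10 CPM, 22 between 10 and 30, 16 between 30 and 60 and 18 from 60 upwards. The exposed mean was between 0.784 and 24.84% of S, with a median of 12.35%. It was at most 5% of S in 14 members, above 5 and up to 10% in 11, up to 15% in 21, up to 20% in 12 and above that in 15. All members were still detected in exposed livers, with at least 11 counts over the exposed libraries together. Of the 730 exposed values 17 were 0 counts, spread over 6 members. In whole liver, fewer cells of a type and less RNA per cell cannot be told apart.

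At the edges of the rule the members did not differ sharply from features left out. The member with the lowest S had 5.053 CPM and the nearest feature below it 4.87 CPM. At the upper limit the values were 99.79 CPM for the last member and 100.5 CPM for the first feature left out. The member with the most signal left kept 24.84% of S, and the nearest feature outside kept 25.16%.

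**Figure D1:**
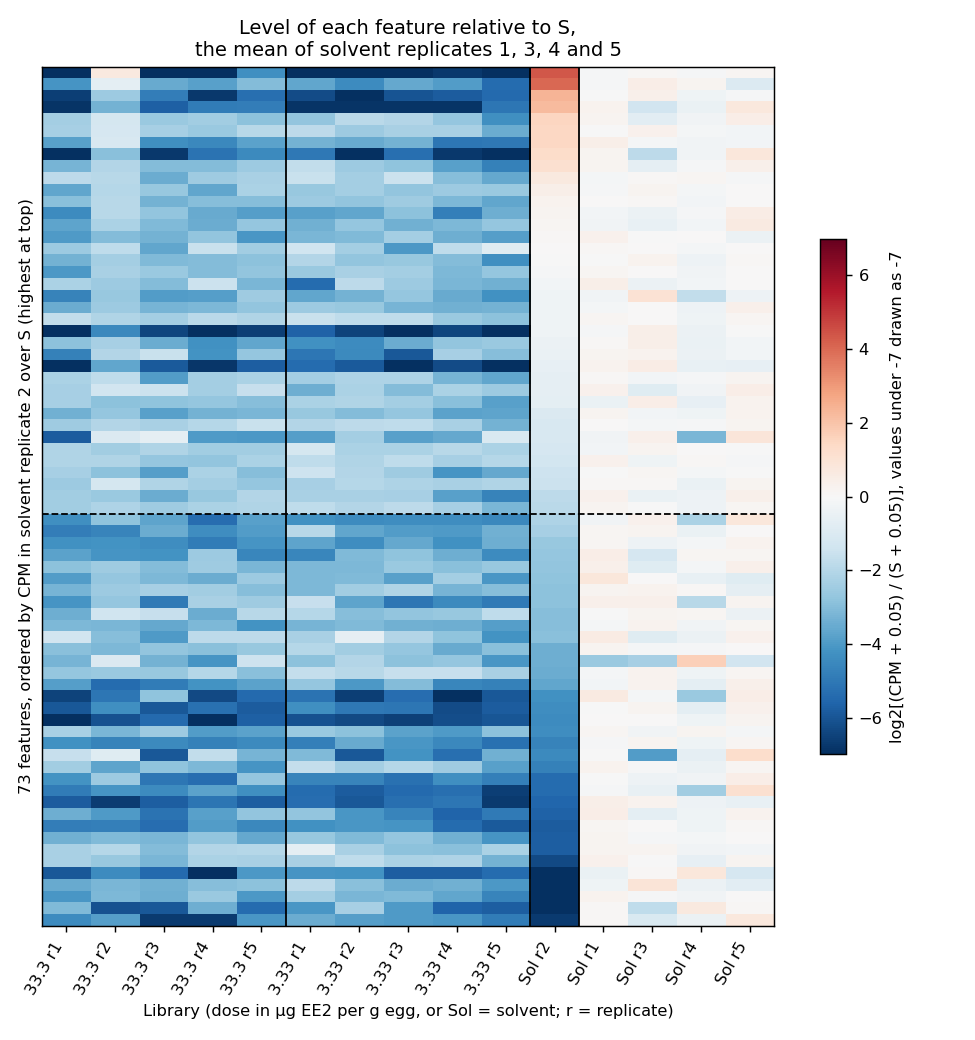
Level of each of the 73 features (rows) in the 15 libraries (columns), as log2 of CPM + 0.05 over S + 0.05, where S is the mean of solvent replicates 1, 3, 4 and 5. Rows are ordered by solvent replicate 2. Of the 730 exposed cells 723 are at or under 50% of S (blue) and 1 is above S. Of the 292 cells of the 4 solvent libraries at the right 272 lie between 0.5 and 2 times S (pale). Solvent replicate 2 runs from red at the top to dark blue below the dashed line, under which lie the 35 features at or under 25% of S in that library.

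The most abundant member was s2f_0001079007. It had 19.7, 13.3, 6.92, 21.3 and 12.8 CPM in replicates 1 to 5 at 33.3 µg/g and 36.9, 24.4, 18.1, 5.63 and 8.21 CPM at 3.33 µg/g. Solvent replicate 2 had 37.1 CPM and solvent replicates 1, 3, 4 and 5 had 97.1, 110.7, 91.8 and 99.5 CPM. All exposed libraries were under the 4 solvent libraries, and solvent replicate 2 lay just above the highest exposed library. The exposed mean was 16.7 ± 9.52 CPM (SD, n = 10) and S was 99.8 ± 7.97 CPM (SD, n = 4). Within the lower dose the values spread widely, with replicate 1 the highest of all exposed libraries and replicate 4 the lowest.

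The next member in abundance had a far smaller share of S left in exposed livers. It had 3.48, 3.59, 2.45, 6.62 and 4.33 CPM at 33.3 µg/g, 5.31, 5.79, 5.69, 2.37 and 1.63 CPM at 3.33 µg/g, 1.72 CPM in solvent replicate 2 and 110.0, 101.2, 80.2 and 107.4 CPM in the other solvent livers. Here solvent replicate 2 sat inside the exposed range and far from the other solvent libraries. The third in abundance had 0.71, 1.37, 2.20, 0.452 and 1.83 CPM at 33.3 µg/g, 1.40, 1.16, 1.004, 1.28 and 1.50 CPM at 3.33 µg/g, 4.57 CPM in solvent replicate 2 and 101.6, 98.8, 80.8 and 110.8 CPM in the other solvent livers. Its exposed mean was 1.318% of S, and no exposed library reached the level of solvent replicate 2.

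The following 2 members in abundance kept more signal. The fourth had 8.05 to 20.9 CPM at 33.3 µg/g, 3.38 to 18.4 CPM at 3.33 µg/g, 24.4 CPM in solvent replicate 2 and 63.7 to 111.4 CPM in the other 4 solvent livers. The fifth had 10.5 to 16.4 CPM at 33.3 µg/g, 6.02 to 19.0 CPM at 3.33 µg/g, 51.1 CPM in solvent replicate 2 and 56.6 to 115.0 CPM in the other solvent livers. In both, solvent replicate 2 was above every exposed library and under the other solvent libraries. In both, replicate 5 was the lowest library at 3.33 µg/g.

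The member with the smallest share of S left was s2f_0001165003, of low abundance. Its counts over the 10 exposed libraries summed to 11, against 704 over the 4 solvent libraries. The CPM values were 0, 0.382, 0.0629, 0 and 0.0509 at 33.3 µg/g, 0.14, 0.061, 0, 0.064 and 0 at 3.33 µg/g, 7.76 in solvent replicate 2 and 9.13, 12.9, 7.27 and 9.42 in the other solvent livers. Solvent replicate 2 was within the range of the other solvent libraries. The libraries with 0 counts, replicates 1 and 4 at 33.3 µg/g and replicates 3 and 5 at 3.33 µg/g, allow up to 0.194, 0.226, 0.167 and 0.188 CPM in that order, taking 3 counts as the limit and counting error alone. The exposed mean of 0.076 CPM was 0.784% of S, a 127.5-fold difference, and rested on few counts.

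Ranked by the share of S left, the third and the fourth member also had few exposed counts. The third had 33 counts over the exposed libraries against 1013 over the 4 solvent libraries. It had 0 to 1.07 CPM at 33.3 µg/g, 0.0558 to 0.28 CPM at 3.33 µg/g, 9.22 CPM in solvent replicate 2 and 9.25 to 19.8 CPM in the other solvent livers. The fourth had 15 against 430 counts, with 0 counts in 4 of 5 libraries at 3.33 µg/g and in 1 at 33.3 µg/g. Solvent replicate 2 held 27.8 CPM of it and the other solvent livers 2.27 to 9.76 CPM. The fifth was a more abundant member, with 0.458 to 1.43 CPM at 33.3 µg/g, 0.439 to 1.47 CPM at 3.33 µg/g, 1.03 CPM in solvent replicate 2 and 36.0 to 67.9 CPM in the other solvent livers. In the fifth, solvent replicate 2 lay within the exposed range, in the third it was just under the other solvent livers and in the fourth above them.

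**Figure D2:**
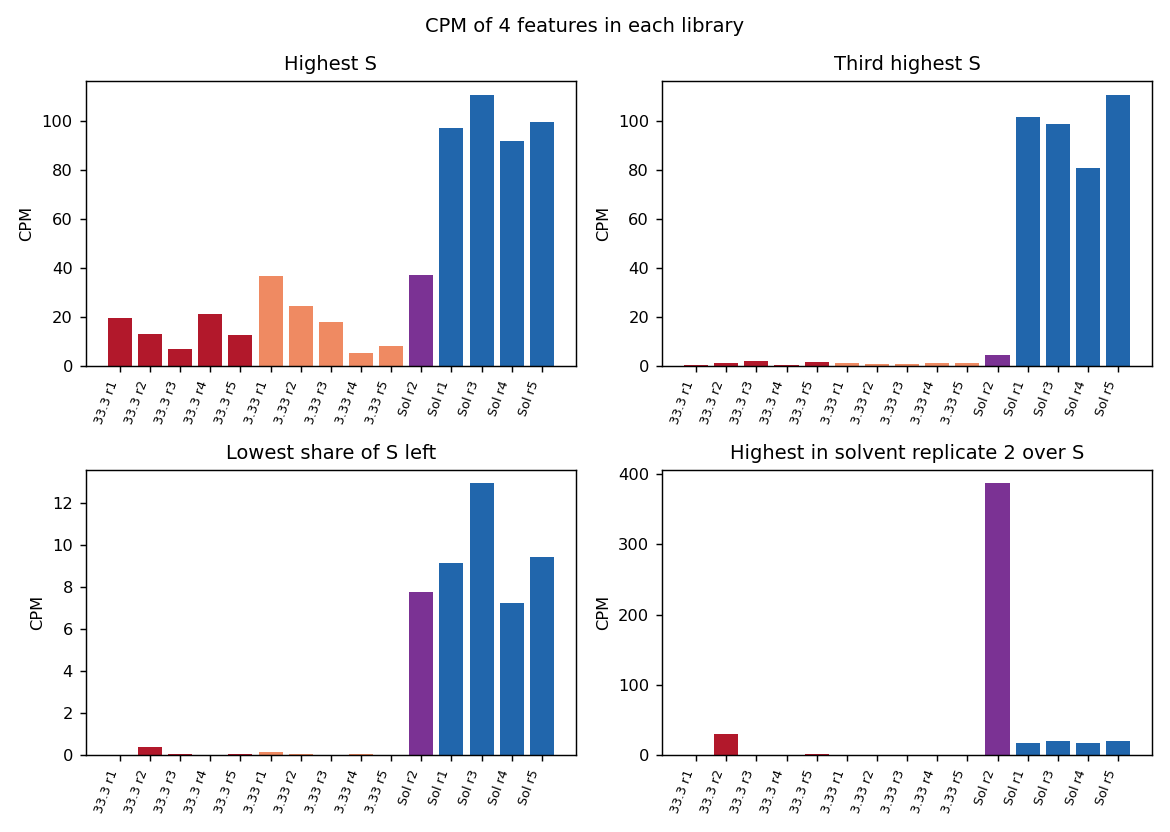
CPM of 4 features in each of the 15 libraries, 1 bar per library, in order 33.3 µg/g (dark red), 3.33 µg/g (orange), solvent replicate 2 (purple) and the other solvent replicates (blue). Solvent replicate 2 had 37.1 CPM of the feature with the highest S and 4.57 CPM of the one in the upper right panel. It had 7.76 CPM of the feature with the smallest share left and 386.9 CPM of the feature in the lower right panel, where the other solvent libraries were at 17.6 to 20.7 CPM.

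Solvent replicate 2 was left out of the rule by name and is the 1 solvent library whose own values the rule did not use. Leaving it out shaped the list: with S from all 5 solvent libraries there were 200 members, 57 of them shared. Its values are therefore no independent check of the rule. In solvent replicate 2, 35 of the 73 members (47.9%) were at or under 25% of S. Among all features with S of 5 to 100 CPM, members included, this held for 1.5%, or 127 features, so that members made up 27.6% of the features this low there. With TMM scaling (trimmed mean of M-values) the count was 44 of the 73, against 3.21% of features in the range. As this is 1 library, no test was made. The ratio is divided by the same S that the rule used, and the features of the range were not chosen in that way. The counts here and in the next paragraph are therefore not independent of the rule.

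The members fell on a wide scale in solvent replicate 2. Beside the 35 low ones, 9 were above 25 and under 50% of S, where 1.78% of all features in the range were, and 20 were between 50% and 2 times S, where 49.6% were. A further 5 were above 2 and under 4 times S, where 39.0% were, and 4 at 4 times S or more, where 8.13% were. Members were under all 4 other solvent libraries in 47 cases, where 7.73% of features in the range were. They were above all 4 in 12 cases, where 83.2% of features in the range were, and within their range in 14. With TMM scaling, 62 members were under all 4, where 37.7% of features were, 5 above all 4, where 38.9% were, and 6 within.

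The exposed livers give a second scale for this library. Solvent replicate 2 was above every exposed library in 39 members, within the exposed range in 22 and under every exposed library in 12. Among all features in the range, 36.8% were above every exposed library and 15.7% under every one. Exposed values had a part in choosing the members, so these counts are not independent of the rule. All 12 members under every exposed library were among the 35 low ones, and 4 of the 35 were above every exposed library. Of the other 38 members, 35 were above every exposed library. All 38 had to lie above their exposed mean by the rule, so nothing is read from this count.

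The members were also summed in these 2 groups. The split was made after the values were seen and describes them only. The 35 members low in solvent replicate 2 summed to 96.6, 119.6, 89.6, 111.0 and 110.0 CPM at 33.3 µg/g, 161.9, 126.4, 109.7, 89.3 and 75.1 CPM at 3.33 µg/g, 66.9 CPM in solvent replicate 2 and 1368, 1290, 1131 and 1344 CPM in solvent replicates 1, 3, 4 and 5. Over these members solvent replicate 2 was under all 10 exposed libraries. The other 38 members summed to 159.8 to 316.2 CPM at 33.3 µg/g, 125.7 to 257.1 CPM at 3.33 µg/g, 2193 CPM in solvent replicate 2 and 1104 to 1414 CPM in the other solvent livers. Over those, solvent replicate 2 was above all other libraries by library total, but not with TMM scaling. There it had 1552 CPM, above all exposed libraries (92.9 to 264.2 CPM) and within the range of the other solvent livers (1292 to 2148 CPM). The 35 low members had 47.3 CPM in solvent replicate 2 with TMM scaling, still under all exposed libraries (55.5 to 164.5 CPM).

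**Figure D3:**
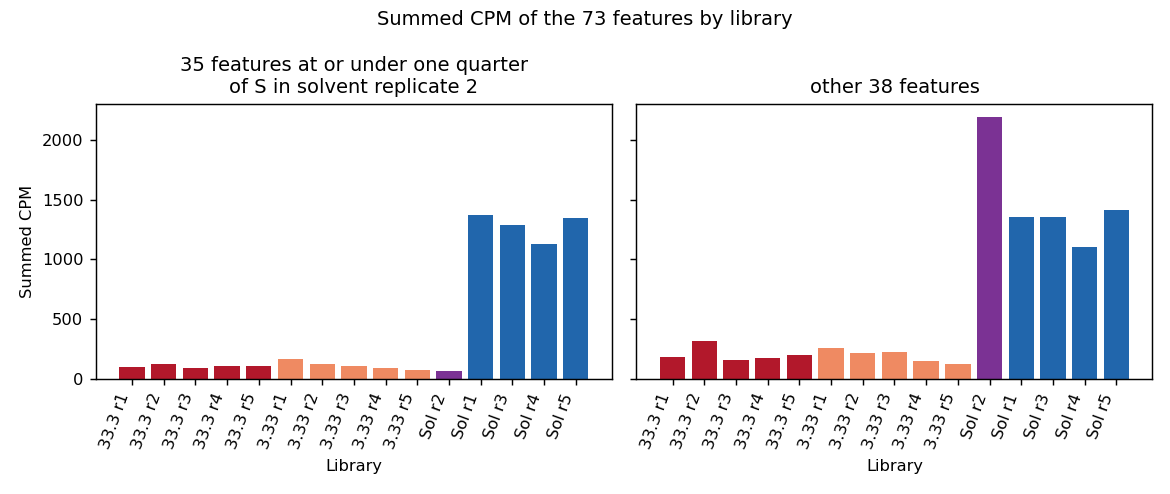
Summed CPM, by library total, in each library of the 35 features at or under 25% of S in solvent replicate 2 (left) and of the other 38 (right), with libraries in order 33.3 µg/g, 3.33 µg/g, solvent replicate 2 and the other solvent replicates. Solvent replicate 2 is the lowest bar at the left, at 66.9 CPM, and the highest at the right, at 2193 CPM.

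The members low in solvent replicate 2 were found at all levels of S. They were 7 of the 17 members under 10 CPM, 10 of 22 from 10 to 30 CPM, 10 of 16 from 30 to 60 CPM and 8 of 18 above. They were 18 of the 25 members with at most 10% of S left in exposed livers, and 17 of the 48 with more. The median share of S left in exposed livers was 9.504% in the 35 low members and 15.31% in the other 38. Both ratios are divided by S, and the rule used S and the exposed mean. These counts and medians are therefore not independent of the rule. The 3 members with the lowest ratio to S had 0, 0.0862 and 0.345 CPM in solvent replicate 2. Of the first of them 0 counts were found, which allows up to 0.259 CPM, and its other solvent livers had 2.44 to 8.75 CPM. The second had 0.382 to 3.42 CPM at 33.3 µg/g, 0.501 to 6.04 CPM at 3.33 µg/g and 8.71 to 48.0 CPM in the other solvent livers. The third had 3.81 to 10.5 CPM at 33.3 µg/g, 2.51 to 12.2 CPM at 3.33 µg/g and 53.5 to 75.3 CPM in the other solvent livers.

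**Figure D4:**
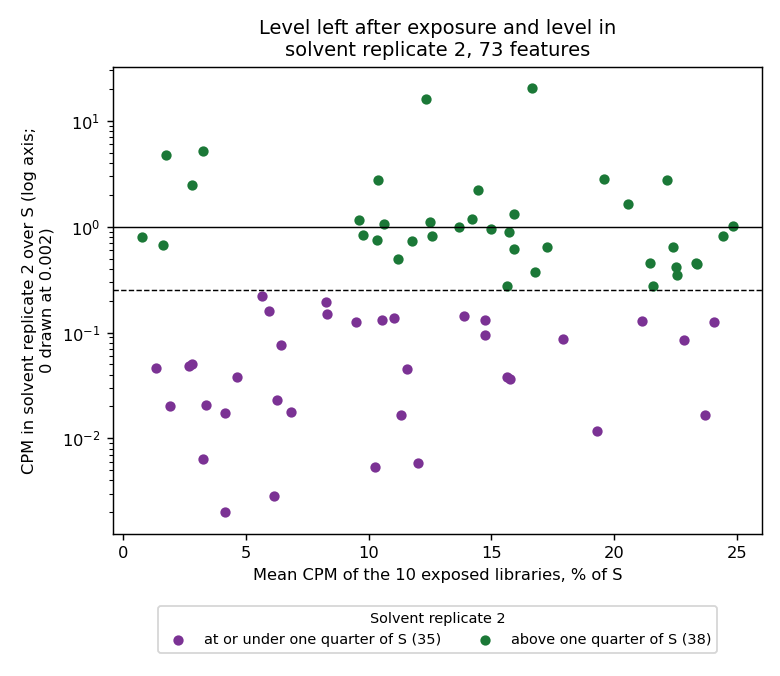
For each of the 73 features, the exposed mean as a percentage of S (horizontal axis) and the CPM in solvent replicate 2 over S (vertical log axis). Purple points, 35 features, lie at or under 25% of S in solvent replicate 2 (dashed line), and green points, 38 features, above it, up to 20.5 times S. Both colours occur over the whole horizontal range. Both axes are divided by S.

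At the other end were members far more abundant in solvent replicate 2 than in any other library. The highest by ratio to S had 0, 30.2, 0, 0 and 0.916 CPM in replicates 1 to 5 at 33.3 µg/g and 0.0699, 0.061, 0.0558, 0.128 and 0 CPM at 3.33 µg/g. Solvent replicate 2 had 386.9 CPM, and solvent replicates 1, 3, 4 and 5 had 17.6, 19.6, 17.6 and 20.7 CPM. The exposed mean of this member came to 96.09% from replicate 2 at 33.3 µg/g, the 1 exposed library above the other solvent livers. The second had 9.54 CPM in that exposed library, 0.839 to 1.83 CPM in the other libraries at 33.3 µg/g, 0.313 to 1.23 CPM at 3.33 µg/g, 247.2 CPM in solvent replicate 2 and 7.74 to 21.5 CPM in the other solvent livers. The third had 13.9 CPM in that exposed library, 0.677 to 2.77 CPM in the rest at 33.3 µg/g, 0.427 to 1.82 CPM at 3.33 µg/g, 415.8 CPM in solvent replicate 2 and 64.5 to 101.2 CPM in the other solvent livers. These 3 members made up 46.5% of the summed CPM of all members in solvent replicate 2 and 4.39% in the other 4 solvent livers.

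Members that were high in solvent replicate 2 were often highest among exposed livers in replicate 2 at 33.3 µg/g. That library was the highest of the 10 exposed ones in 26 of the 73 members, where it was in 7.37% of features with S of 5 to 100 CPM. It was the highest in 8 of the 9 members above 2 times S in solvent replicate 2, in 12 of the 16 above S, in 8 of the 22 above 25% and up to S, and in 6 of the 35 low ones. The 7.37% covers all these classes together, and shares of the range by class were not taken. Spearman's correlation over the 73 members between the ratio of solvent replicate 2 to S and the ratio of replicate 2 at 33.3 µg/g to the mean of the other 9 exposed libraries was 0.541. Over all 8490 features in the range it was 0.392. All points of such a correlation share the same libraries, so it is a description.

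Summed over all 73 members, exposed livers held 278.0, 435.9, 249.4, 288.6 and 310.8 CPM at 33.3 µg/g and 419.0, 346.0, 332.1, 238.4 and 200.7 CPM at 3.33 µg/g. Solvent replicate 2 held 2260 CPM, and the other solvent livers 2725, 2647, 2235 and 2758 CPM. By library total the sum in solvent replicate 2 was within the range of the other solvent livers. With TMM scaling it was 1599 CPM, under all of them (2615 to 4313 CPM), and above all exposed libraries (148.4 to 425.5 CPM). The mean was 312.5 ± 72.4 CPM at 33.3 µg/g and 307.3 ± 87.6 CPM at 3.33 µg/g (SD, 5 libraries each), and 2591 ± 242 CPM in the 4 solvent libraries of the rule (SD, n = 4). The ranges of the doses overlapped.

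The residual level in exposed livers varied more between libraries than that of other features. The median coefficient of variation over the 10 exposed libraries was 49.1% for members and 17.4% for all features with S of 5 to 100 CPM, and over the 4 solvent libraries of the rule it was 24.4% for members and 16.3% for those features. The rule chose members by a low exposed mean, which divides the exposed coefficient, and by the values of those 4 solvent libraries. These coefficients are therefore not independent of the rule. Exposed counts of members are low, and the part of that in the spread was not tested. Relative to each member's exposed mean, the median member was at 0.844, 1.34, 0.818, 0.889 and 0.963 in replicates 1 to 5 at 33.3 µg/g and at 1.11, 1.04, 0.975, 0.757 and 0.555 in replicates 1 to 5 at 3.33 µg/g. For all features in the range these medians were 0.904 to 1.07 at 33.3 µg/g and 0.882 to 1.20 at 3.33 µg/g. The median member was thus lowest in replicate 5 at 3.33 µg/g, the library in which the median feature of the range was highest. That library had the lowest CPM of the 10 in 24 members, where it had in 10.3% of features in the range. Replicate 1 at 3.33 µg/g had the highest CPM in 18 members, where it had in 4.3% of the features. In replicate 5 at 3.33 µg/g the 20 most abundant features took 9.41% of counts, the least among exposed libraries. The part of that in the result was not tested.

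In 66 of the 73 members all 10 exposed libraries were under all 4 solvent libraries of the rule. Of the features in the range 3.51% were so, but the rule used this contrast and nothing is read from the count. The other 7 members had at least 1 exposed library above the lowest of those solvent libraries. In 4 members a single solvent library held more than 50% of the sum over the 4. The clearest had 0.953, 1.16, 19.6 and 2.35 CPM in solvent replicates 1, 3, 4 and 5, 0.517 CPM in solvent replicate 2, 0.301 to 2.98 CPM at 33.3 µg/g and 0.313 to 1.40 CPM at 3.33 µg/g. It is a member through solvent replicate 4 alone.

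Most members were low at each dose taken alone. The mean at 33.3 µg/g was at most 25% of S in 68 members, the mean at 3.33 µg/g in 67, and both were in 62. The median share of S left was 12.87% at 33.3 µg/g and 11.62% at 3.33 µg/g, and the largest share was 32.97% at 33.3 µg/g and 29.19% at 3.33 µg/g. These values come from the contrast that chose the members. The comparisons with solvent share the solvent libraries.

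The difference between the doses did not enter the rule and was tested over all features. Of the 73 members 72 passed the filter on low counts, and the 1 that did not was the member with 0 counts in solvent replicate 2. No member differed between 33.3 and 3.33 µg/g by the edgeR quasi-likelihood test (lowest Benjamini-Hochberg adjusted p = 0.9995), and of the 13014 features tested 0.0% did. At an unadjusted p under 0.05 there were 4 members, all higher at 33.3 µg/g, where 3.68% of all features passed in either direction and 1.75% as higher at that dose. Without replicate 2 at 33.3 µg/g there were 0 members, where 339 of the 13103 features tested in that fit had an unadjusted p under 0.05. Some members passed the filter only through the solvent libraries, among them 2 of these 4. Fitted on the exposed libraries alone, 62 members were tested and 0 were called, where 0.00786% of all features were. In that fit 7 had an unadjusted p under 0.05, of which 4 were higher and 3 lower at 33.3 µg/g, where 6.64% of all features had. DESeq2 called 0 members, where 0.0307% of all features were called, and gave no adjusted p for 1, the member highest in solvent replicate 2. It had 5 members at an unadjusted p under 0.05, where 4.75% of all features were. Limma-voom called 0 members, where 0.0% of all features were called. It had 0 members at an unadjusted p under 0.05, where 3.57% of all features had. Without solvent replicate 2, 0 members were called, where 0.0% of all features were. In that fit 11 members had an unadjusted p under 0.05, where 7.28% of all features had. Of the 11, 8 were higher and 3 lower at 33.3 µg/g. With the replicate number as a block, 2 members had an unadjusted p under 0.05, where 2.86% of all features had.

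Over the 72 members tested, the median log2 difference of 33.3 minus 3.33 µg/g was 0.0196, against 0.00397 over all features. It was below 0 in 35 members and above 0 in 37, and below 0 in 49.1% of all features. The median size of the difference, whatever its sign, was 0.28 in members and 0.13 in all features. Members were chosen for a low exposed level, and the part of low counts in these sizes was not tested. The standard error of the difference was computed back from the F-test. It had a median of 0.62 in members, or 0.44 without solvent replicate 2. In 51 members the difference was smaller than its own standard error. Some of the 72 passed the filter only through the solvent libraries. Fitted on the exposed libraries alone, the 62 members tested had a median of -0.065, against 0.0022 over all features. In that fit 35 were below 0 and 27 above, where 49.5% of all features were below. The median size there was 0.24 in members and 0.12 in all features.

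The 2 largest differences between doses moved by more than 1.5 times without single libraries. Both members passed the filter only through the solvent libraries. The member highest in solvent replicate 2 had a log2 difference of 6.34 ± 2.12 (standard error; edgeR adjusted p = 0.9995), and 1.97 without replicate 2 at 33.3 µg/g. The next, the member with 15 exposed counts, had 2.45 ± 1.08 (edgeR adjusted p = 0.9995), 1.64 without that library and 4.35 without replicate 5 at 3.33 µg/g. The third had 2.17 ± 1.13, and 1.74 to 2.65 without each library in turn. Its CPM values were 2.19, 3.81, 0.0629, 2.03 and 0.661 at 33.3 µg/g and 0.769, 0.061, 0.335, 0.128 and 0.627 at 3.33 µg/g, and the doses overlapped.

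The lowest differences were smaller. The member with the lowest had 0.581, 0.687, 1.57, 0.828 and 1.17 CPM at 33.3 µg/g and 4.68, 1.40, 1.17, 1.09 and 1.69 CPM at 3.33 µg/g. Its log2 difference was -1.10 ± 0.62 (edgeR adjusted p = 0.9995), and -0.43 without replicate 1 at 3.33 µg/g, its highest exposed library. The following members had -0.89 and -0.77, with standard errors of 0.72 and 0.56, and ranged over -1.16 to -0.63 and -0.995 to -0.68 without each library in turn. For s2f_0001079007 the log2 difference was -0.40 ± 0.57, and 0.059 without replicate 1 at 3.33 µg/g.

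**Figure D5:**
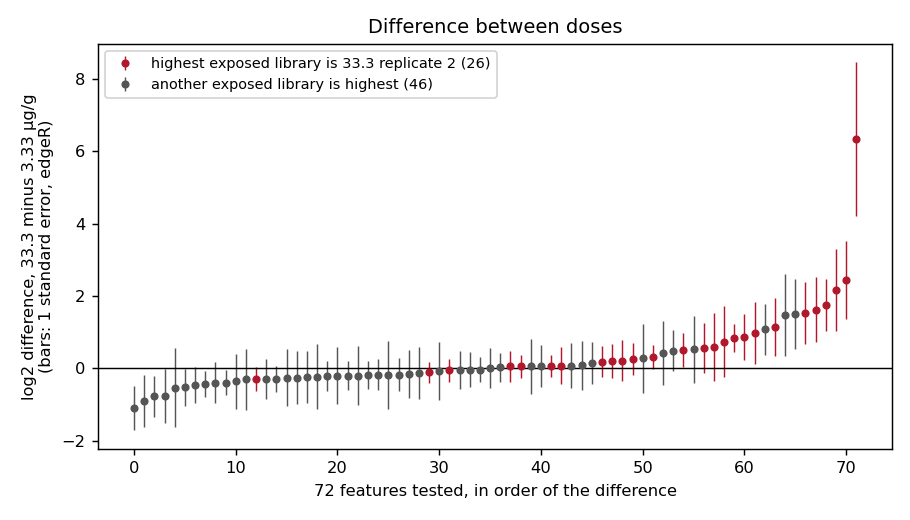
Log2 difference of 33.3 minus 3.33 µg/g for the 72 features tested, in order of size, with bars of 1 standard error (edgeR). Red points are the 26 features whose highest exposed library is replicate 2 at 33.3 µg/g, and they include the point at 6.34. Grey points are the other 46. Some of the 72 passed the filter only through the solvent libraries.

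In 1 member the doses did not overlap. It had 0.516, 0.915, 0.754, 1.20 and 0.814 CPM at 33.3 µg/g and 0.349, 0.244, 0.335, 0.384 and 0.125 CPM at 3.33 µg/g, so that all libraries of the higher dose were above those of the lower. Over all features tested, 0.369% were above and 0.499% below without overlap. Its edgeR log2 difference was 1.49 (unadjusted p = 0.1455, Benjamini-Hochberg adjusted p = 0.9995). This member passed the filter only through the solvent libraries, and its exposed libraries held 2 to 16 counts each. The fit therefore carries no support for a difference. It had 0.345 CPM in solvent replicate 2 and 16.0, 11.5, 3.05 and 36.4 CPM in the other solvent livers.

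Some members had IDs that differ only in their last 3 digits. The files do not say what these digits mark, and reads of near-identical sequences may have been split between such features. There were 12 such members in 5 sets, or 16.4% of members. Of all features with S of 5 to 100 CPM, 51.2% had such a counterpart in that range. Of the members, 36 (49.3%) had a counterpart in the range, member or not. Most of the 5 sets had further features in the range that were not members. One set of 3 held the member with the smallest share of S left. Its members had 0.784, 1.62 and 3.25% of S left in exposed livers and 0.80, 0.67 and 5.22 times S in solvent replicate 2, and all 3 were highest among exposed livers in replicate 2 at 33.3 µg/g. Another set of 3 had 12.0, 15.7 and 22.9% of S left and 0.006, 0.036 and 0.085 times S in solvent replicate 2. A pair held the members with 20.5 and 16.2 times S in solvent replicate 2, and a further pair had 0.005 and 0.076 times S. The last pair was divided, at 0.048 and 1.10 times S.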

How the data were processed

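The authors deposited 1 table of whole-number counts per feature for 15 libraries. It was taken as unnormalised because library totals differ. Not given in the sources used here are the aligner, the counting program and the reference. Columns were matched to samples by name and by the table's class line, reading the medium class as 3.33 and the high class as 33.3 µg/g and the final digit as the replicate, which no header states in words. No column was left without a sample (0 columns).

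CPM values were counts over the column total. The members, and the choices made for describing them, were fixed with earlier results of these data known. The doses were compared with edgeR 4.0.16 (R 4.3.3) by its quasi-likelihood F-test on all 15 libraries and 3 groups, with TMM scaling, the default filter by expression (minimum count 10, minimum total 15) and two-sided Benjamini-Hochberg adjustment over 13014 features, called under 0.05. TMM factors were 1.025 to 1.215 at 33.3 µg/g, 0.985 to 1.352 at 3.33 µg/g, 1.413 in solvent replicate 2 and 0.632 to 0.855 in the other solvent libraries. The test was checked on simulated data. The rule for features given individually took the 5 highest S, the 5 lowest shares of S left, the 3 highest and lowest ratios of solvent replicate 2 to S, the 3 largest differences between doses each way and those next to each limit, with an ID for the first of each of the first 2 lists. The members dominated by 1 solvent library or without overlap between doses, and the sets by ID, were chosen after their values were seen. Standard errors of edgeR differences were computed back from the test, as the size of the log2 difference over the square root of F. DESeq2 1.42.0 and limma 3.58.1 were alternatives. Limits from 0 counts (3 counts) cover counting error only.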

Additional observations from a re-analysis of the deposited data

Results flagged for a closer look

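Dixon's criterion for 1 stray value among 5, at the 95% level (0.71), was applied to 75 sets of values and met in 19. By chance about 1 in 20 would meet it. Of the 19, 8 were in solvent replicate 2 and 7 in replicate 2 at 33.3 µg/g. Values of 1 library are linked. The sums split by solvent replicate 2, and the members ranked by its ratio to S, were chosen by the values of that library. Members ranked by S were chosen by the values of the other 4 solvent libraries. Members ranked by the share of S left or by the difference between doses were chosen by exposed values. For flags in such sets the 1 in 20 is no reference, and nothing is read from their number.

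Solvent replicate 2 was far below the other solvent livers in the 3 most abundant members, with 37.1, 1.72 and 4.57 CPM where the others had at least 91.8, 80.2 and 80.8 CPM. In the summed level of the 35 members chosen for being low in that library it had 66.9 CPM, against at least 1131 CPM in the others. It was far above them in the 3 members with the highest ratio to S, with 386.9, 247.2 and 415.8 CPM where the others reached 20.7, 21.5 and 101.2 CPM, and in the sum of the other 38 members, with 2193 CPM against at most 1414 CPM. This sum stood out by library total only: with TMM scaling it was 1552 CPM, within the 1292 to 2148 CPM of the other solvent livers.

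Replicate 2 at 33.3 µg/g was far above the other libraries of its dose in those same 3 members, with 30.2, 9.54 and 13.9 CPM where the others reached 0.916, 1.83 and 2.77 CPM. It was also so in the members ranked 1, 3 and 4 for the smallest share of S left, with 0.382, 1.07 and 0.534 CPM against at most 0.0629, 0.203 and 0.153 CPM. These values rest on few reads, 5, 14 and 7 counts against at most 1, 4 and 3. In the sum of the other 38 members it had 316.2 CPM against at most 200.9 CPM.

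The remaining 4 were single values. Replicate 5 at 3.33 µg/g had 0.125 CPM, a value of 2 counts, of the member ranked 4 for the smallest share, where the other libraries of the dose had 0. Replicate 2 at 3.33 µg/g had 6.04 CPM of the member second lowest in solvent replicate 2, against at most 1.90 CPM. Replicate 1 at 3.33 µg/g had 4.68 CPM of the member with the lowest difference between doses, against at most 1.69 CPM. Replicate 4 at 33.3 µg/g had 3.31 CPM of the member ranked 3 from the low end of that difference, against at most 2.14 CPM.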

How the results depend on the processing

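The number of members was 73. It was 118 with TMM-scaled CPM and 121 with median-of-ratios scaling, and 62 of the 73 were kept by each. Both scalings raised the summed level of members in the 4 solvent libraries and lowered their exposed mean, to 283 and 281 CPM. A member can therefore leave by passing the 100 CPM limit on S, without a larger share of S left in exposed livers. The number of members was 200 with S taken from all 5 solvent libraries, 57 of them shared, and 38 with a limit of 12.5% of S. It stayed within 1.5 times with a looser limit on the exposed mean, each dose required alone, S of at least 10 CPM or medians in place of means (99, 62, 56 and 80), and without replicate 2 at 33.3 and replicate 5 at 3.33 µg/g together, chosen after seeing the data (76). Leaving out each library in turn gave 69 to 76 members. The count low in solvent replicate 2 was 34 to 35 without each other solvent library, 44 with each other scaling or a limit of 50% of S and 25 with 12.5%. The summed CPM of members was 2591 in the 4 solvent libraries of the rule, but 3741 with TMM and 3819 with median-of-ratios scaling. In solvent replicate 2 it was 2260, but 1599 and 1602. TMM-scaled sums of the members split by solvent replicate 2, and its position among the libraries, were added after seeing the data. The exposed mean stayed within 1 SD of 309.9. Without each library the exposed mean was 295.9 to 322.0 and the solvent mean 2536 to 2710.

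Between doses, no alternative called a member, and the median log2 difference was -0.18 to 0.12 without each library. The replicate block left 0 members called, where 0.0% of all features were. It had 2 members at an unadjusted p under 0.05, where 2.86% of all features had. Replicate numbers were not shown to pair the samples. Deviations of same-numbered libraries correlated at -0.404 to 0.434 between the doses. With solvent they correlated at -0.397 to 0.5 for 33.3 µg/g and -0.362 to 0.546 for 3.33 µg/g. Replicate 1 was above 0 in all pairs (0.434, 0.5 and 0.546), and every other replicate was below 0 in at least 1. Differently numbered libraries were not compared, so these ranges have no reference. The count without overlap was 1, and 1 to 2 without each exposed library. The shares over all features given above used all libraries of both doses. None is given with a library left out, so nothing is read from this range. The log2 difference of s2f_0001079007 ranged over -0.64 to 0.059, reversing without 1 library. That of s2f_0001165003, which passed the filter only through the solvent libraries and had 11 exposed counts, ranged over -0.61 to 1.37 and carries no support. Low exposed counts limit what can be said of the smallest shares.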
